A study of Mus musculus with 12 samples.

Results

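The genes followed here are the D cyclins Ccnd1, Ccnd2 and Ccnd3, the kinases Cdk4, Cdk6 and Cdk2, and the retinoblastoma family Rb1, Rbl1 and Rbl2. They were picked by symbol from the count table, and all 9 were found among its 17365 genes. RNA-seq was measured in adult neural stem cells (NSCs) taken from the subventricular zone of mice aged 6 to 8 weeks and grown below passage 10. EGF/FGF cultures received EGF and FGF2 and served as the proliferating state, BMP cultures received BMP4 alone (d-qNSCs), and BMP/FGF cultures received BMP4 with FGF2 (p-qNSCs). Every factor was given at 10 ng/ml, and treatments lasted 3 days. Each treatment held 4 libraries, 2 of line ANS4 (strain MF1) and 2 of line BL6 (strain C57BL/6), and as each strain is represented by 1 line, line and strain cannot be told apart. No group carried an engineered allele in the labels. BMP cultures differ from EGF/FGF in gaining BMP4 and in losing both EGF and FGF2, BMP/FGF cultures in gaining BMP4 and losing EGF, and BMP/FGF differs from BMP in FGF2 alone.

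D cyclins are the mitogen-responsive partners of Cdk4 and Cdk6. Active cyclin D kinases phosphorylate the pocket proteins Rb, p107 (encoded by Rbl1) and p130 (encoded by Rbl2), which otherwise hold E2F transcription factors in check, and Cdk2 with cyclins E and A then carries cells into S phase. p130 is the pocket protein classically associated with resting cells and p107 with cycling cells, and Ccnd2 is well known as a cyclin of neural progenitors.

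Library totals ran from 18069052 to 19451818 estimated counts, so 1 count was worth 0.0516 to 0.0559 CPM (the unit of level used here, a gene's count scaled to the TMM-adjusted library size). All 9 genes passed the expression filter, with mean levels from 21.8 CPM (Cdk6) to 1114 CPM (Ccnd1). All 12 markers of NSCs and astroglia were expressed, and of 12 microglia markers 6 were measured, whose sum was 13.0 to 18.9 CPM in EGF/FGF, 5.81 to 7.56 CPM in BMP and 9.38 to 12.01 CPM in BMP/FGF, with Csf1r at a mean of 0.0221 CPM. The 8 markers of neuroblasts and young neurons summed to 571 to 604 CPM in EGF/FGF, 1310 to 2010 CPM in BMP and 938 to 1017 CPM in BMP/FGF. The largest part of each sum was Map2, at means of 554, 958 and 808 CPM in EGF/FGF, BMP and BMP/FGF. In the same order, Dcx averaged 1.29, 280 and 49.9 CPM, Tubb3 11.8, 165 and 45.5, and Dlx2 14.8, 238 and 76.8. Rbfox3, a marker of mature neurons, was at means of 0.0258, 0.119 and 0.0409 CPM. The 8 markers of oligodendrocytes (194 to 233, 643 to 689 and 712 to 737 CPM) and the 5 of 6 for ependymal cells in the table (63.4 to 84.5, 230 to 281 and 221 to 228 CPM) also summed higher in both BMP treatments, with the oligodendrocyte gene Mog at a mean of 0.115 CPM over all libraries, and the 6 of 8 for endothelial and mural cells stayed between 4.53 and 15.0 CPM. The part of other cell types in the results below was not tested, and in bulk cultures fewer cells of a type cannot be told apart from less RNA per cell.

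**Figure D1:**
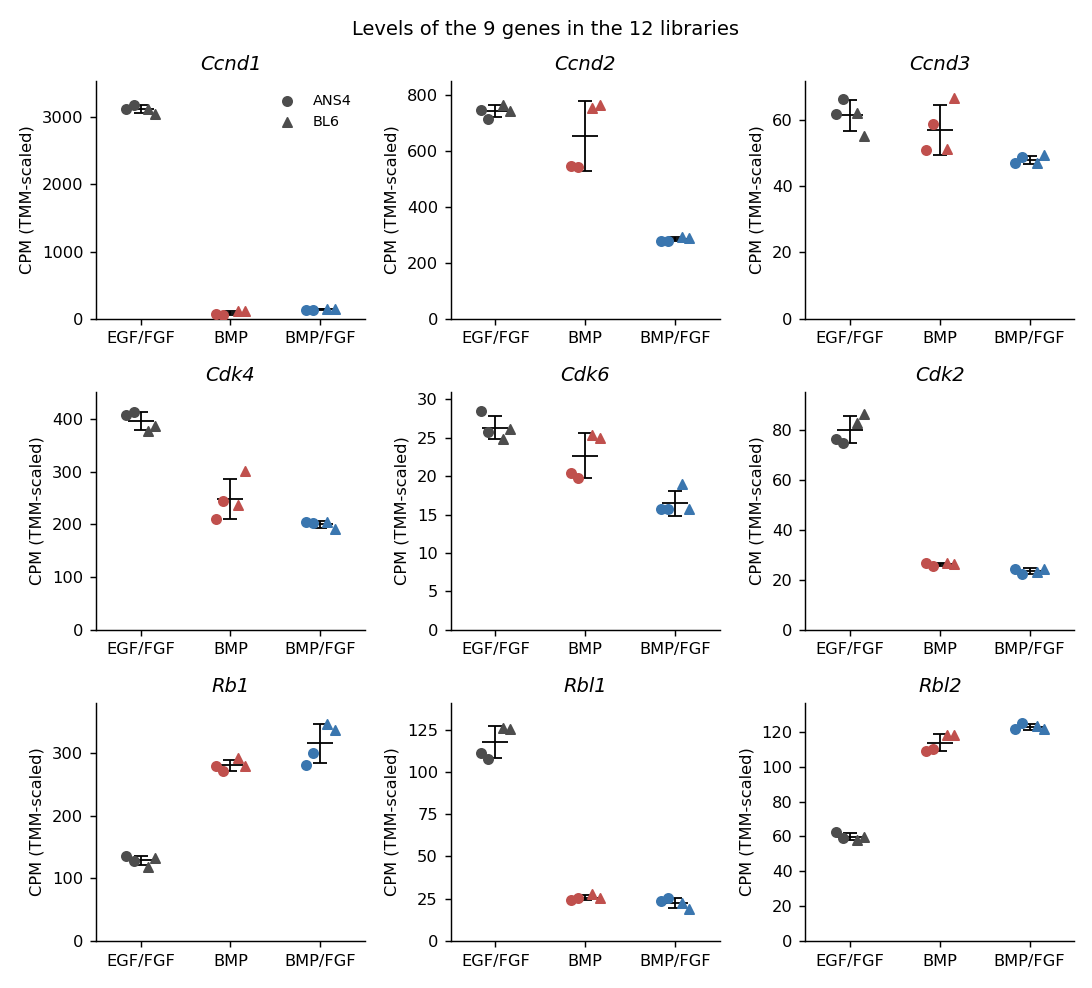
Level of each gene (CPM, linear axis from 0) in every library of the 3 treatments; circles are ANS4, triangles are BL6, and the bar is the mean ± SD of 4 libraries. Ccnd1 averaged 3118 CPM in EGF/FGF, 84.6 in BMP and 140.2 in BMP/FGF, Ccnd2 averaged 744, 653 and 286, and Rb1 and Rbl2 rose while Rbl1 and Cdk2 fell.

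The question of the first comparison is which parts of the cyclin D to Rb axis change when NSCs are moved from EGF/FGF into BMP. Rb1 and Rbl2 rose, and Ccnd1, Ccnd2, Cdk4, Cdk6, Cdk2 and Rbl1 fell, by edgeR's quasi-likelihood test at FDR under 0.05. Thus 2 of 9 genes were higher, where 40.8% of all 13312 genes tested were, and 6 of 9 were lower, against 38.8% of all. In BMP/FGF against EGF/FGF, 2 of 9 were higher (40.9% of all) and 7 of 9 lower (38% of all). Comparing BMP/FGF with BMP, 1 of 9 was higher (20.1% of all) and 4 of 9 lower (21.3% of all). The median log2 fold change of the 9 genes was -0.22, -0.98 and -0.18 in these comparisons, and that of all genes tested 0.02, 0.02 and -0.00. In the same order, libraries of the treatments compared did not overlap in 9465, 10094 and 4744 of the 13312 genes tested. Statements on overlap of single genes below are to be read beside these counts. The first pair of comparisons shares the EGF/FGF libraries and each BMP treatment enters 2 comparisons, so they are not independent of each other.

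Ccnd1 encodes cyclin D1. Its levels in EGF/FGF were 3126 and 3183 CPM in ANS4 and 3124 and 3041 CPM in BL6. In BMP they were 63.4 and 59.4 CPM in ANS4 and 107 and 108 CPM in BL6, and in BMP/FGF 133 and 131 CPM in ANS4 and 148 and 149 CPM in BL6. No library of one treatment reached the range of another. Ccnd1 fell 37.9-fold from EGF/FGF to BMP (log2 fold change -5.24 ± 0.14, SE, n = 4 libraries each, edgeR FDR 9.38e-16) and 22.4-fold from EGF/FGF to BMP/FGF (-4.49 ± 0.13, edgeR FDR 3.90e-15). BMP/FGF was 1.69-fold above BMP (0.76 ± 0.12, edgeR FDR 9.10e-05). Ccnd1 was the only one of the 9 genes called higher with FGF2 added to BMP4, yet its mean level there was 140.2 CPM against 3118 CPM in EGF/FGF.

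Ccnd2 encodes cyclin D2. It measured 747 and 716 CPM in ANS4 and 766 and 744 CPM in BL6 under EGF/FGF, and 549 and 542 CPM in ANS4 but 756 and 767 CPM in BL6 under BMP. Under BMP/FGF it measured 279.5 CPM in both ANS4 libraries and 294 and 289 CPM in BL6. The BL6 libraries in BMP lay within or just above the range of EGF/FGF, the ANS4 libraries in BMP lay below it, and all BMP/FGF libraries lay far below both. Ccnd2 fell 2.60-fold from EGF/FGF to BMP/FGF (-1.38 ± 0.08, edgeR FDR 2.64e-11) and 2.27-fold from BMP to BMP/FGF (-1.18 ± 0.08, edgeR FDR 6.90e-09). The change from EGF/FGF to BMP was small (-0.20 ± 0.08, edgeR FDR 0.0264, exact permutation p = 0.4, two-sided), and within BL6 it was 0.01 in the model of 6 groups. The call was lost when the scaling used library size only (FDR 0.0563), without the line term (FDR 0.0930), in limma-trend on the log2 table (FDR 0.319), and without any one of the 4 ANS4 libraries of EGF/FGF and BMP (FDR 0.0590 to 0.118).

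Thus with FGF2 beside BMP4, Ccnd1 and Ccnd2 moved in opposite directions. The neuroblast marker Dcx moved with Ccnd2 between these treatments, at 173 and 170 CPM in ANS4 and 396 and 378 CPM in BL6 under BMP and 47.6 to 54.8 CPM under BMP/FGF, but was at most 2.17 CPM in EGF/FGF, where Ccnd2 was high. Its part in the level of Ccnd2 was not tested.

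Ccnd3, cyclin D3, changed least among the D cyclins. Its libraries ranged from 55.3 to 66.4 CPM in EGF/FGF, 51.1 to 66.8 CPM in BMP and 47.0 to 49.4 CPM in BMP/FGF, so that EGF/FGF and BMP overlapped and BMP/FGF lay below both. In BMP against EGF/FGF the log2 difference was -0.11 (95% interval -0.28 to 0.07, edgeR FDR 0.236), in BMP/FGF against EGF/FGF -0.35 ± 0.08 (edgeR FDR 0.000843), and in BMP/FGF against BMP -0.25 ± 0.08 (edgeR FDR 0.0255). The last of these differences was called in 17 of 23 alternative settings, and not within ANS4 alone (FDR 0.0591) or BL6 alone (FDR 0.0611). The BL6 BMP replicates differed from each other (51.2 and 66.8 CPM). Without the higher of these, replicate 2, Ccnd3 in BMP became lower than in EGF/FGF (-0.20, FDR 0.0131), and the difference between the BMP treatments was no longer called (-0.15, FDR 0.108).

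Levels of different genes can be compared only per length, so CPM was divided by the length of the longest coding transcript of each gene in GENCODE vM21. On that scale, Ccnd1 made up 85.1% ± 0.31 (SD, n = 4) of D cyclin transcripts in EGF/FGF, 14.5% ± 2.1 in BMP and 35.6% ± 1.2 in BMP/FGF. Ccnd2 held 11.4% to 12.3% of them in the EGF/FGF libraries, 67.5% ± 1.4 in BMP and 42.8% ± 0.60 in BMP/FGF, and Ccnd3 2.96% ± 0.17, 18.0% ± 3.1 and 21.6% ± 0.84. Ccnd1 was thus the leading D cyclin transcript in every EGF/FGF library, at 6.90 to 7.52 times Ccnd2 per kb, and Ccnd2 led in every library of both BMP treatments, at 4.16 to 5.39 times Ccnd1 in BMP and 1.15 to 1.26 times in BMP/FGF. The summed level of the 3 genes was 980 ± 17 CPM per kb in EGF/FGF, 153 ± 28 in BMP and 105 ± 3.7 in BMP/FGF, which is 15.6% and 10.7% of EGF/FGF.

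These shares depend on the length used. Ccnd2 has 4 coding transcripts in the annotation, the longest of 6330 bases and with a median of 994.5, and Ccnd3 has 16, with 2113 and 889.5 bases. With median lengths, Ccnd1 held 50.5% in EGF/FGF, 2.98% in BMP and 9.89% in BMP/FGF, and the summed level in BMP and BMP/FGF was 45.1% and 22.9% of EGF/FGF. On both length scales and with no length correction, the Ccnd1 share was highest in EGF/FGF and lowest in BMP, and the summed level was highest in EGF/FGF and lowest in BMP/FGF.

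**Figure D2:**
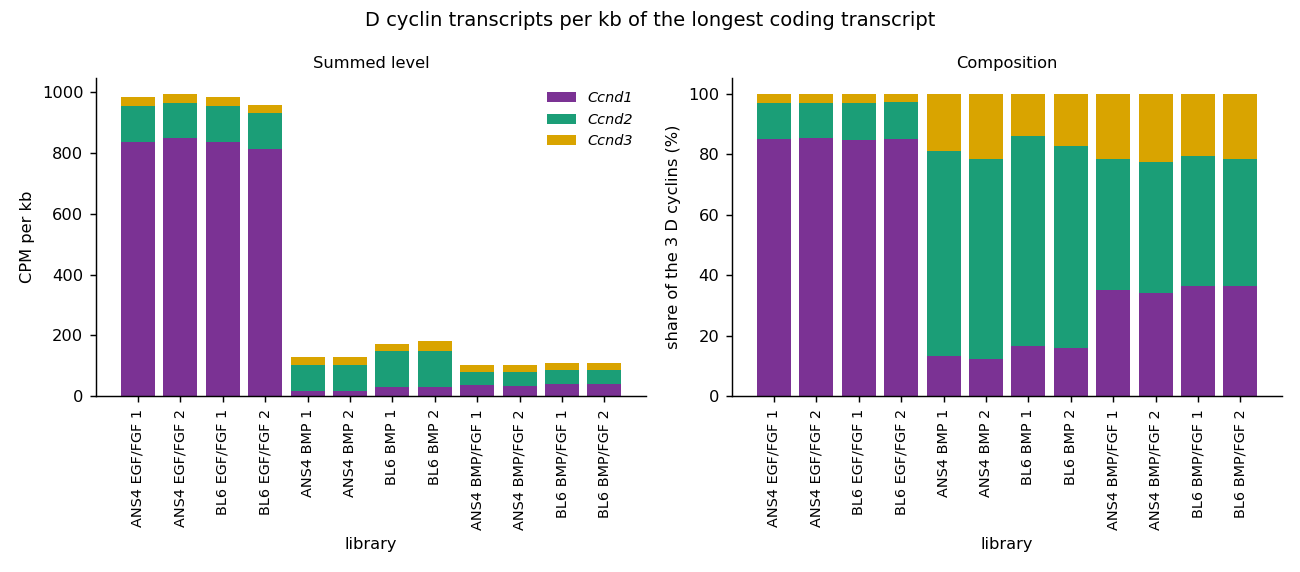
Left, stacked level of the D cyclin genes in each library (CPM per kb of the longest coding transcript); right, the same as a share of their sum (%). Ccnd1 fills most of each EGF/FGF bar, Ccnd2 most of each BMP bar, and BMP/FGF bars are the lowest in sum with 34.2% to 36.6% Ccnd1.

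Cdk4, a catalytic partner of the D cyclins, measured 407 and 414 CPM in ANS4 and 378 and 386 CPM in BL6 under EGF/FGF. It fell in BMP to 209 and 245 CPM in ANS4 and 236 and 301 CPM in BL6, and in BMP/FGF to 205, 202, 204 and 191 CPM. The treatments did not overlap, although the lowest BMP library lay just above the BMP/FGF range. The log2 fold changes were -0.68 ± 0.08 in BMP (edgeR FDR 7.88e-07), -0.98 ± 0.08 in BMP/FGF (edgeR FDR 6.46e-09) and -0.30 ± 0.08 between the BMP treatments (edgeR FDR 0.00808; 0.0820 within ANS4 alone).

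Cdk6, the other partner, ranged from 24.9 to 28.5 CPM in EGF/FGF, from 19.8 to 25.4 CPM in BMP and from 15.7 to 18.9 CPM in BMP/FGF. Here too the BL6 libraries in BMP (25.4 and 25.0 CPM) overlapped EGF/FGF, and the ANS4 libraries (20.5 and 19.8 CPM) did not. Cdk6 was lower in BMP/FGF than in EGF/FGF (-0.68 ± 0.09, edgeR FDR 2.30e-06) and than in BMP (-0.46 ± 0.09, edgeR FDR 0.000772). Its difference between BMP and EGF/FGF (-0.22 ± 0.09, edgeR FDR 0.0303, exact permutation p = 0.0857, two-sided) was lost with library size only (FDR 0.0529), within BL6 alone (-0.04, FDR 0.776), and without any one of the 4 ANS4 libraries (FDR 0.0585 to 0.127).

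Per kb, the summed D cyclins stood at 5.09 ± 0.19 times Cdk4 in EGF/FGF, 1.08 to 1.499 times in the BMP libraries and 1.08 ± 0.067 times in BMP/FGF. With median transcript lengths these ratios were 4.45, 3.21 and 2.01. The sum of the D cyclins therefore fell more than Cdk4 on both scales, but the size of the shift in BMP differed between the scales. Taken singly, Ccnd2 (log2 fold change -0.20) and Ccnd3 (-0.11, not called) fell less than Cdk4 (-0.68) in BMP against EGF/FGF.

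Cdk2, which acts with cyclins E and A at and after the G1/S transition, fell more than Cdk4 or Cdk6. It measured 76.5, 74.8, 82.8 and 86.6 CPM in EGF/FGF, 26.6, 25.6, 26.6 and 26.2 CPM in BMP, and 24.5, 22.4, 23.0 and 24.4 CPM in BMP/FGF (ANS4 first). All 4 libraries of EGF/FGF lay far above the others. The fall was 3.05-fold in BMP (-1.61 ± 0.06, edgeR FDR 1.20e-13) and 3.40-fold in BMP/FGF (-1.76 ± 0.06, edgeR FDR 4.20e-14). Between the BMP treatments the difference was -0.16 (95% interval -0.29 to -0.02, edgeR FDR 0.0694) and was not called. The treatments did not overlap (exact permutation p = 0.0286, the smallest that 4 against 4 libraries allow), as in 4744 of all 13312 genes tested.

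Of the pocket proteins, Rb1 rose in both BMP treatments. It measured 135, 127, 118 and 132 CPM in EGF/FGF, 279.6, 271, 291 and 279 CPM in BMP, and 279.9, 299.8, 346 and 336 CPM in BMP/FGF (ANS4 first). The BMP treatments overlapped with each other and lay well above EGF/FGF. Rb1 was 2.18-fold higher in BMP (1.13 ± 0.07, edgeR FDR 3.89e-11) and 2.45-fold higher in BMP/FGF (1.29 ± 0.07, edgeR FDR 6.31e-12). BMP/FGF against BMP gave 0.17 (95% interval 0.03 to 0.31, edgeR FDR 0.0511, exact permutation p = 0.0571), which passed the threshold in 5 of 23 alternative settings.

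Rbl2, encoding p130, rose with Rb1. It ranged from 57.7 to 62.6 CPM in EGF/FGF, from 109 to 118 CPM in BMP and from 122 to 125 CPM in BMP/FGF, without overlap. The rise was 1.91-fold in BMP (0.93 ± 0.06, edgeR FDR 3.42e-11) and 2.06-fold in BMP/FGF (1.04 ± 0.06, edgeR FDR 7.51e-12). The step from BMP to BMP/FGF was 0.11 (95% interval -0.00 to 0.23, edgeR FDR 0.108).

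Rbl1, encoding p107, went the other way. It measured 111, 108, 126 and 126 CPM in EGF/FGF, 24.2, 25.5, 27.6 and 25.2 CPM in BMP, and 23.5, 25.5, 22.3 and 18.8 CPM in BMP/FGF (ANS4 first). The fall was 4.59-fold in BMP (-2.20 ± 0.09, edgeR FDR 1.11e-13) and 5.22-fold in BMP/FGF (-2.38 ± 0.09, edgeR FDR 4.75e-14), and the BMP treatments overlapped (-0.18, 95% interval -0.37 to 0.01, edgeR FDR 0.113). Per kb, Rbl1 was 37.9% ± 2.7 of the pocket protein transcripts in EGF/FGF, 5.95% ± 0.21 in BMP and 4.79% ± 0.80 in BMP/FGF, while Rb1 went from 43.1% ± 2.1 to 67.9% ± 0.69 and 69.5% ± 2.4, and Rbl2 from 19.0% ± 0.67 to 26.1% ± 0.64 and 25.8% ± 1.7 (SD, n = 4).

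Since pocket proteins act on genes through E2F, the promoters of the 9 genes were searched for 6 letter strings of the E2F site, TTTCCCGC, TTTGGCGC, TTTCCCGG, TTTGGCGG, TTTCGCGC and TTTCGCGG, on both strands. The RefSeq promoter table (GRCm38.p6, 250 bases before to 50 bases after the start site) held 6 of the 9 genes in 7 promoters, and of all 32851 promoters in it 3.81% held a match. Among the 9 genes the strings were found in 2, those of Cdk2 and Rbl1, with 1 of the strings in each. The search took the first place of a string on each strand, so further copies of the same string would not be seen. The stretch of 30 bases around each match is printed 5′ to 3′ on the strand of the gene, with the match in capitals.
Cdk2: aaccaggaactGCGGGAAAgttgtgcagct
Rbl1: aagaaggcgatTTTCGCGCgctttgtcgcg
The Cdk2 stretch lies at chr10:128705173-128705202 on the minus strand, and its match, TTTCCCGC on the strand opposite to the gene, spans bases -140 to -133 counted from 0 at the start site. The Rbl1 stretch lies at chr2:157204534-157204563 on the minus strand, and its match, TTTCGCGC on the strand of the gene, spans bases -18 to -11. A match is a description of the letters, not a bound site. The promoters of Ccnd3, Cdk4, Cdk6 and Rbl2 held none of these strings, and Ccnd1, Ccnd2 and Rb1 were not among the matched entries.

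**Figure D3:**
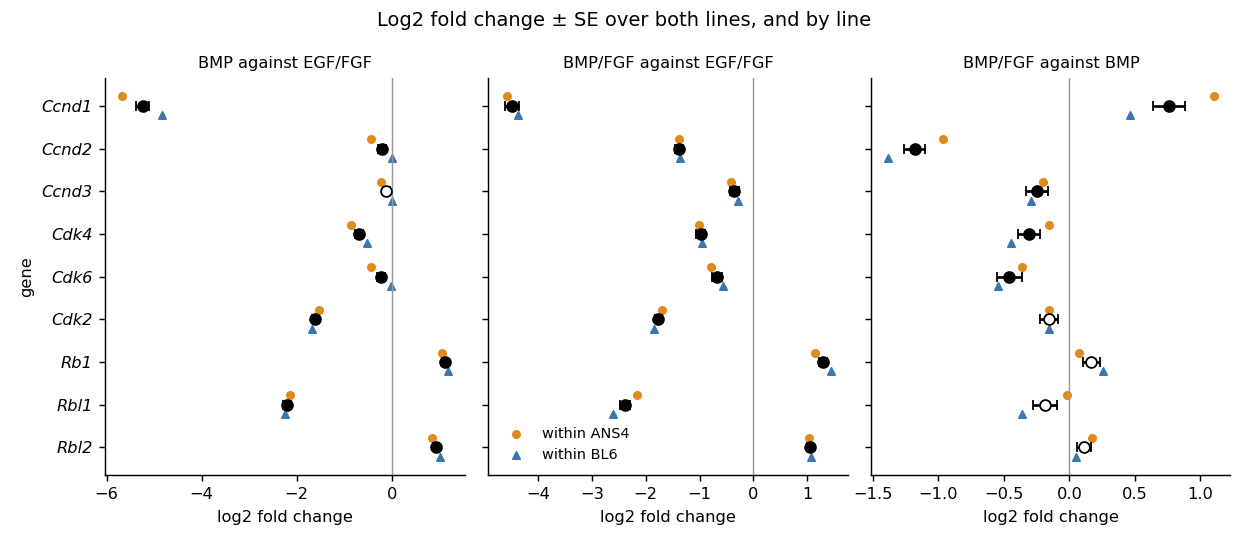
Log2 fold change of each gene in the 3 comparisons; black circles are estimates over both lines ± SE (filled, edgeR FDR under 0.05; open, not called), orange circles are ANS4 and blue triangles BL6, and the axes differ in range. The lines part most for Ccnd1 in the comparisons that involve BMP alone. Ccnd2 follows, with Cdk6 close to it in BMP against EGF/FGF. Cdk2, Rb1, Rbl1 and Rbl2 changed in the same direction in both lines against EGF/FGF.

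Set side by side per kb of the longest coding transcript, Ccnd1 (834 ± 16 CPM per kb) led in EGF/FGF, before Cdk4 (193 ± 8.3), Ccnd2 (117 ± 3.3), Cdk2 (33.3 ± 2.3), Ccnd3 (29.1 ± 2.2), Rb1 (27.6 ± 1.6), Rbl1 (24.2 ± 2.0), Rbl2 (12.1 ± 0.41) and Cdk6 (2.28 ± 0.13). Ccnd1 was there the 35th most abundant of 12920 tested genes with a coding length, and the neighbours from Cdk2 to Rbl1 overlapped in their ranges. In BMP, Cdk4 (121 ± 19) and Ccnd2 (103 ± 20) overlapped at the top, followed by Rb1 (60.2 ± 1.8), and Ccnd1 (22.6 ± 7.2) ranged over Ccnd3 (24.2 to 31.6) and Rbl2 (23.1 ± 1.0) and stood at rank 3305 of all genes. Cdk2 (10.9 ± 0.20), Rbl1 (5.27 ± 0.29) and Cdk6 (1.97 ± 0.25) closed the order. On the same scale the order in BMP/FGF was Cdk4 (97.7 ± 3.2), Rb1 (67.7 ± 6.6), Ccnd2 (45.1 ± 1.1), Ccnd1 (37.5 ± 2.5, rank 2015), Rbl2 (25.0 ± 0.35), Ccnd3 (22.7 ± 0.57), Cdk2 (9.79 ± 0.43), Rbl1 (4.63 ± 0.58) and Cdk6 (1.43 ± 0.14), with no overlap between neighbours. These orders depend on the length used. With median coding lengths, Ccnd2 stood above Cdk4 in every treatment (748 against 372 CPM per kb in EGF/FGF, 657 against 233 in BMP and 287 against 188 in BMP/FGF), and Ccnd3 (54.0) above Ccnd1 (37.5) in BMP/FGF. Cdk6, whose longest coding transcript has 11525 bases and the median of its 5 has 697, then stood at 37.8 CPM per kb in EGF/FGF.

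The design also asks whether both lines responded alike. Under EGF/FGF none of the 9 genes differed between BL6 and ANS4 at edgeR FDR under 0.05, where 6.75% of all genes did. The lowest edgeR FDR values among the 9 were those of Rbl1 (BL6 minus ANS4 0.20, 95% interval 0.04 to 0.36, FDR 0.112) and Cdk2 (0.16, 95% interval 0.02 to 0.31, FDR 0.172). Ccnd1 and Ccnd2 started out within 0.05 of each other on the log2 scale, at -0.03 (95% interval -0.15 to 0.08) and 0.05 (95% interval -0.07 to 0.16).

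A test of the line by treatment difference called Ccnd1 and Ccnd2 in BMP against EGF/FGF, 2 of 9 genes where 9.02% of all were called. Ccnd1 fell 51.4-fold in ANS4 and 28.6-fold in BL6 (log2 difference BL6 minus ANS4 0.85 ± 0.08, edgeR FDR 1.16e-05). Ccnd2 fell 1.34-fold in ANS4 and had a log2 fold change of 0.01 in BL6 (difference 0.44 ± 0.08, edgeR FDR 0.00205). Between the BMP treatments the same 2 genes were called, where 13.5% of all were. Ccnd1 was higher with FGF2 by 1.10 in ANS4 and 0.46 in BL6 on the log2 scale (difference -0.64 ± 0.08, edgeR FDR 0.000157), and Ccnd2 was lower by -0.96 and -1.38 (difference -0.42 ± 0.08, edgeR FDR 0.00191). In BMP/FGF against EGF/FGF, where the BMP libraries do not enter, the differences of Ccnd1 and Ccnd2 were 0.20 (95% interval 0.04 to 0.37, FDR 0.151) and 0.02 (95% interval -0.15 to 0.18, FDR 0.939). The BMP libraries are shared by the 2 comparisons in which both were called, so these are not separate observations. Over all genes, the BL6 BMP replicates differed from each other more than those of any other group. The chi-square per degree of freedom of their counts was 12.4, against 2.14 to 4.76 elsewhere. Ccnd1 (107 and 108 CPM) and Ccnd2 (756 and 767 CPM) were close to each other in these 2 replicates.

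For BMP/FGF against EGF/FGF, 4.98% of all genes and 1 of the 9 were called. That gene was Rbl1, which fell by 2.16 in ANS4 and 2.61 in BL6 on the log2 scale (difference -0.45 ± 0.12, edgeR FDR 0.0353). This call was lost in limma-trend on the log2 table (FDR 0.200), with no filter (FDR 0.0612) and without any one of 7 of the 8 libraries compared (FDR 0.0732 to 0.222). The other members had line differences that were not called. In BMP against EGF/FGF that of Cdk6 was close to Ccnd2 in size (0.41, 95% interval 0.12 to 0.70, edgeR FDR 0.0706). That of Cdk4 was 0.34 there (95% interval 0.07 to 0.61, edgeR FDR 0.105), and 0.16 to 0.51 leaving out 1 library. In BMP/FGF against EGF/FGF that of Rb1 was 0.30 (95% interval 0.11 to 0.50, edgeR FDR 0.0736). It was called by DESeq2 (0.31, DESeq2 FDR 0.0369) and in the 8 libraries compared alone (0.30, edgeR FDR 0.0219). Neuroblast and young neuron markers were also higher in BL6 than in ANS4 under BMP, summing to 2010 and 1911 against 1379 and 1310 CPM. Of these sums, Map2 gave 1143 and 962 CPM in BL6 and 910 and 819 CPM in ANS4. The part of these markers in the difference of Ccnd2 was not tested.

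**Figure D4:**
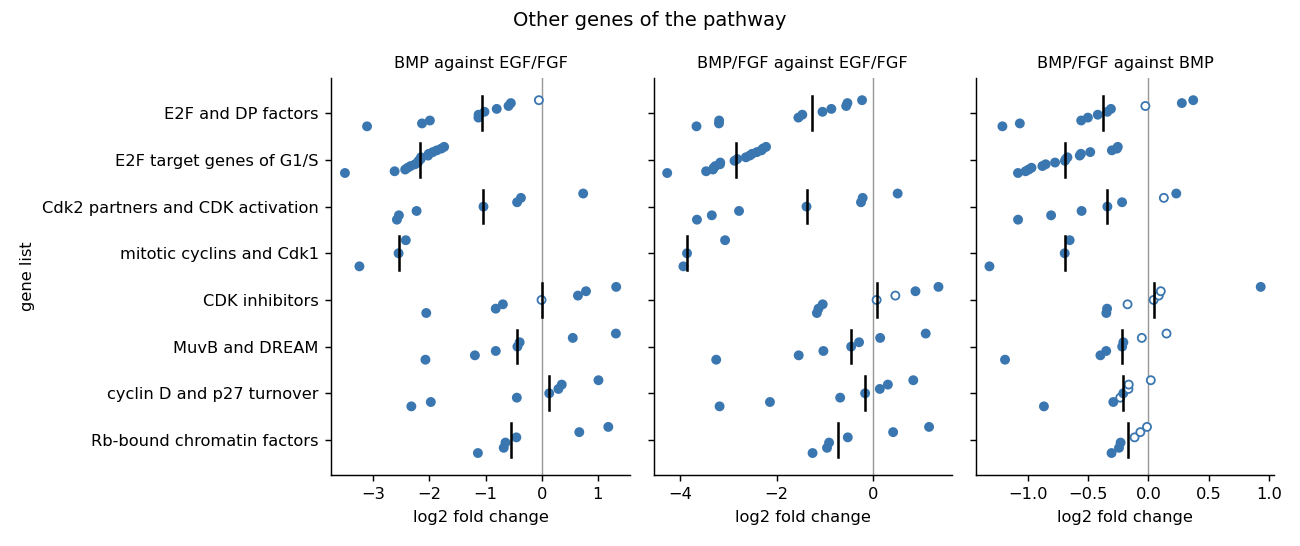
Log2 fold change of every tested gene in 8 lists of the pathway around the D cyclins and the Rb family; each circle is a gene (filled, edgeR FDR under 0.05), the black bar is the median of the list, and the axes differ in range. All 16 E2F target genes lie left of 0 in each comparison, whereas CDK inhibitors lie on both sides.

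Other genes of the pathway were taken from lists, and their counts are to be read beside the shares of all genes tested. In BMP against EGF/FGF 40.8% of all were higher and 38.8% lower. In BMP/FGF the shares were 40.9% and 38% against EGF/FGF, and 20.1% and 21.3% against BMP. In the list of E2F and DP factors, 0 of 10 were higher and 9 lower in BMP, 0 and 10 in BMP/FGF against EGF/FGF, and 2 and 7 in BMP/FGF against BMP. E2f8, an atypical E2F, fell from 78.0 ± 12 CPM in EGF/FGF to 9.00 ± 1.7 in BMP and 6.06 ± 1.8 in BMP/FGF. The atypical E2f7 and the activator E2f2 fell by 2.13 and 1.99 on the log2 scale in BMP and were lower again in BMP/FGF than in BMP (-1.06 and -1.21). Tfdp1, the most abundant of the list, fell 2.18-fold in BMP and 2.76-fold in BMP/FGF. The 1 factor not called in BMP was Tfdp2 (-0.05).

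All 16 listed E2F target genes of G1/S were lower in each of the 3 comparisons, with medians of -2.17, -2.85 and -0.69. Tk1, thymidine kinase, showed the largest fall in BMP and in BMP/FGF (58.4 ± 3.5 CPM in EGF/FGF, 5.14 ± 0.79 in BMP, 3.00 ± 0.45 in BMP/FGF), and Cdc6, a replication licensing factor, the largest in BMP/FGF against BMP (-1.08 ± 0.12, edgeR FDR 1.26e-06). Cdt1, another licensing factor, fell by 2.26 in BMP and Mcm3, a helicase subunit, by 2.62 on the log2 scale. Pcna, the replication clamp and most abundant of the list, fell by 2.02. Thus E2F targets were further below in BMP/FGF than in BMP, while Ccnd1 was above. The promoter strings searched above were held by 7 of the 14 target genes with a promoter in the table.

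Among Cdk2 partners and CDK-activating factors, 7 of 8 were tested, of which 6 were lower and 1 higher in each BMP treatment against EGF/FGF. Ccna2, cyclin A2, fell from 303 ± 32 to 51.4 ± 14 CPM in BMP and 23.9 ± 1.0 CPM in BMP/FGF, and Ccne2, cyclin E2, from 47.5 ± 5.8 to 8.13 ± 0.83 and 4.63 ± 0.51 CPM. The gene higher was Cdk7, a CDK-activating kinase (0.74 and 0.52). Of the list, 5 were lower and 1, Mnat1, higher (0.23) in BMP/FGF against BMP. The mitotic cyclins and Cdk1 were lower in 3 of 3 genes in all comparisons, with Ccnb1 at -2.55, -3.86 and -1.32 and Ccnb2 at -3.25, -3.94 and -0.69.

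CDK inhibitors did not move as a block. In BMP, 3 of 7 were higher and 3 lower, beside 40.8% and 38.8% of all genes tested. Cdkn1b, encoding p27 and the most abundant of them, rose from 191 ± 10 to 329.9 ± 16 CPM in BMP (0.79 ± 0.06, edgeR FDR 7.41e-10) and was 354 ± 8.4 CPM in BMP/FGF, and Cdkn2b, the Cdk4 and Cdk6 inhibitor p15, rose 2.51-fold in BMP. Cdkn1a, encoding p21, fell from 304 ± 38 to 72.7 ± 7.8 CPM in BMP and was 138 ± 6.9 CPM in BMP/FGF, so that like Ccnd1 it was higher in BMP/FGF than in BMP (0.93 ± 0.08, edgeR FDR 6.60e-08). In BMP/FGF 2 were higher and 3 lower against EGF/FGF, with Cdkn2d, an INK4 inhibitor, at -1.16. BMP/FGF against BMP had 1 higher and 2 lower, with Cdkn2c, another INK4 inhibitor, at -0.35. Cdkn2a, counted as higher in BMP, was low, at 1.53 ± 0.36 CPM in EGF/FGF and 2.41 ± 0.93 CPM in BMP, and these groups overlapped. Its log2 fold change in BMP was -0.15 in ANS4 and 1.34 in BL6 (difference 1.49, edgeR FDR 0.0149).

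Of the MuvB and DREAM list, which holds subunits of the repressor complexes of p107 and p130 together with the kinase Dyrk1a and the activator Foxm1, 2 of 7 were higher and 5 lower in each BMP treatment against EGF/FGF, and 0 and 5 in BMP/FGF against BMP. Lin52, the subunit whose phosphorylation assembles the complex, rose by 1.32 on the log2 scale in BMP, and Foxm1, a factor of late cell cycle genes, fell by 2.07. Lin9 fell by 1.54 in BMP/FGF, and Rbbp4, the most abundant of the list, by 0.39 in BMP. Dyrk1a, the kinase of Lin52, rose 1.47-fold and was lower again with FGF2 (-0.40 ± 0.06, edgeR FDR 9.02e-05). Of the genes for turnover of cyclin D and p27, 4 of 7 were higher and 3 lower in BMP, 3 and 4 in BMP/FGF, and 0 and 3 between the BMP treatments. Fbxo31, an F-box protein that targets cyclin D1, rose 2.02-fold in BMP, and Skp2 and Cks1b, which target p27, fell by 1.97 and 2.32 on the log2 scale. Gsk3b, a kinase of cyclin D1 and the most abundant of the list, was at 0.13, -0.16 and -0.29 in the 3 comparisons. Of the chromatin factors bound by Rb, 2 of 6 were higher and 4 lower against EGF/FGF in both BMP treatments, and 0 and 3 between them. The ATPase Smarca2 rose (1.19 in BMP) and its paralog Smarca4 fell (-0.65). Suv39h1, a histone methyltransferase, was at -1.14 and -1.25 against EGF/FGF, and Kdm5a, a histone demethylase, was at 0.67 and 0.43 there and at -0.24 between the BMP treatments.

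Over the 12 libraries, the genes most like each of the 9 in log2 CPM were sought among 9703 others with a mean of at least 10 CPM. Cdk2 was closest to Mcm4 (Pearson r = 0.999) and Pcna (0.998), and Rbl1 to Ung (0.998) and Rtkn2 (0.997), of which Mcm4 and Pcna stand in the list of E2F targets. Ccnd1 was closest to Hip1 (0.998), Rb1 to Dstyk (0.997) and Slc38a6 (0.996), and Hlf was among the 2 closest to Rbl2 (0.998). Ccnd2 was closest to Sox11 (0.986) and Pkp4 (0.982), Cdk4 to Trim28 (0.987) and Tle5 (0.986), Cdk6 to Fam160b1 (0.972) and Cnot1 (0.970), and Ccnd3 to Glis2 (0.929) and Dda1 (0.924). Among the 9 themselves, Cdk2, Rb1, Rbl1 and Rbl2 followed one pattern with r between 0.987 and 0.995 in size, Rb1 and Rbl2 with the opposite sign to the others, whereas Ccnd2 was closest to Cdk6 (0.948). The 12 points fall into 3 treatments of 4 libraries, so that these values mainly describe differences between treatments.

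The genes lie on 9 loci of GRCm38 (GENCODE vM21) and in 8 of them some exon bases are shared with a gene on the opposite strand. Ccnd1 (ENSMUSG00000070348, chr7:144929931-144939925, minus strand) shares 1100 exon bases with LTO1, Cdk4 (ENSMUSG00000006728, chr10:127063534-127067920, plus strand) 641 with Tspan31, and Cdk2 (ENSMUSG00000025358, chr10:128697939-128705031, minus strand) 34 with Pmel. Rbl1 (ENSMUSG00000027641, chr2:157145893-157204534, minus strand) shares none. Whether the libraries kept strand is not given in the sources used here, so reads from such shared bases cannot be assigned to one gene with certainty.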

How the data were processed

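RNA-seq libraries (low input protocol, BGISEQ-500RS) of 12 NSC cultures were analysed. According to the submitters' processing notes and the study's methods, the authors trimmed reads with Trim Galore 0.5.0, quantified them with kallisto 0.44.0 against mm10 transcripts, summed them to genes with tximport and deposited estimated counts as whole numbers. A further deposited table holds log2 values (rlog, DESeq2 1.27.32) and served as an alternative. Counts were analysed in R 4.3.3 with edgeR 4.0.16. Genes were filtered by treatment (filterByExpr, 13312 kept, 4053 not), scaled by TMM and fitted on all 12 libraries with treatment and line as terms (glmQLFit, glmQLFTest, two-sided). P-values were adjusted by Benjamini-Hochberg over all genes tested, and FDR under 0.05 was called. Line by treatment differences came from a model of 6 group means. Exact permutation tests used log2(CPM + 0.1). DESeq2 1.42.0 and limma 3.58.1 gave alternatives, as did other scalings, no filter, no line term, a replicate block, fits within one line and fits lacking single libraries. Figures were drawn with matplotlib 3.10.9. The model fits were tested on simulated data.

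The genes, the lists and the tests were chosen with earlier results of these data known. Named genes of a list were, per comparison, the 2 with the largest called change in the same direction in both lines, the most abundant gene, and the ends of a range. Cdk7, Cdkn2a, Fbxo31, Mnat1, Tfdp2 and the markers Dcx, Map2, Tubb3, Dlx2, Rbfox3, Csf1r and Mog were named after their values were seen. A few genes that the rule picks are not reported here. The study calls the 2 libraries per line and treatment biological replicates without saying what separated them, and both come from the same line, so p-values measure the spread between these libraries.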

Additional observations from a re-analysis of the deposited data

Results flagged for a closer look

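In BL6 BMP/FGF replicate 1, Cdk6 measured 18.9 CPM while the other 3 libraries of BMP/FGF lay at 15.7 CPM, a gap of 0.995 of the whole range. It was the only library to deviate in this way among 27 sets of 4 libraries (9 genes in 3 treatments), where chance gives about 1 in 20.

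The treatment response differed between the lines, by a test of the difference itself, in 5 cases. For Ccnd1 the log2 fold change in BL6 minus that in ANS4 was 0.85 in BMP against EGF/FGF (edgeR FDR 1.16e-05) and -0.64 in BMP/FGF against BMP (edgeR FDR 0.000157). For Ccnd2 it was 0.44 (edgeR FDR 0.00205) and -0.42 (edgeR FDR 0.00191) in the same comparisons. For Rbl1 it was -0.45 in BMP/FGF against EGF/FGF (edgeR FDR 0.0353).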

How the results depend on the processing

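In 23 of 23 alternatives Ccnd1, Cdk4, Cdk2 and Rbl1 were called lower and Rb1 and Rbl2 higher than in EGF/FGF in both BMP treatments, and of the treatment effects of the 9 genes over all alternatives 587 kept their side of the threshold, 21 lost and 13 gained the call and 0 reversed. The line differences of Ccnd1 and Ccnd2 that were called held in 19 of 19 alternatives, and that of Rbl1 in 10 of 19.

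Among genes with a line by treatment difference (1201, 663 and 1801 for BMP against EGF/FGF, BMP/FGF against EGF/FGF and BMP/FGF against BMP), the 8 libraries compared alone gave 615 and 1685 in the first pair, and leaving out 1 library gave 612 to 2437, 184 to 1369 and 897 to 2833. Of the 9 genes, leaving out 1 library gave 2 to 4 in the first. For BMP/FGF against EGF/FGF the count was 2 by DESeq2 and in the 8 libraries alone, 0 by limma-trend and with no filter, and 0 to 2 leaving out 1 library. Between the BMP treatments, 2 of the 9 were higher in the 8 libraries alone and within ANS4 or BL6 alone (1 to 2 leaving out 1 library), and 2 were lower within ANS4 alone.

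Values near 0 that were not called changed sign under some alternatives. The line difference of Ccnd2 in BMP/FGF against EGF/FGF was -0.026 with library size only, -0.010 by limma-trend and -0.017 to 0.046 leaving out 1 library, and that of Rbl2 was -0.0031 with library size only and -0.0045 to 0.079. Between the BMP treatments, the line difference of Cdk2 was 0.0063 with DESeq2 size factors, 0.010 by DESeq2, 0.037 by limma-trend and -0.069 to 0.078 leaving out 1 library, and that of Ccnd3 was -0.27 to 0.11. There Cdkn2b was -0.0028 with library size only, -0.072 within ANS4 and -0.031 to 0.098 leaving out 1 library, Smarca2 was 0.18 by limma-trend, 0.22 within ANS4 and -0.071 to 0.063, and Suv39h1 was 0.030 within ANS4. The causes were not tested.

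Replicate numbers are shared between groups, but deviations of same-numbered libraries correlated by -0.0711 to 0.0529 over all genes tested. Over genes with a mean log2 CPM above 3 the values in ANS4 were 0.306 for BMP with EGF/FGF, -0.179 for BMP/FGF with EGF/FGF and -0.123 for BMP/FGF with BMP, and in BL6 they ran from -0.0817 to 0.0075. The signs differed between pairs of groups, so the numbers were not taken to pair the libraries. With a replicate block, 5325 genes were higher and 5074 lower in BMP, 5341 and 4984 in BMP/FGF against EGF/FGF, and 2435 and 2590 in BMP/FGF against BMP, and the counts of the 9 genes were 2 and 6, 2 and 7, and 1 and 4. With the ANS4 BMP/FGF numbers crossed, chosen after seeing the data, the counts over all genes were 5345 and 5089, 5370 and 5001, and 2480 and 2636. With 2 libraries per line and treatment, calls of small effects (Ccnd2, Ccnd3 and Cdk6 in BMP against EGF/FGF, and Ccnd3, Rb1, Cdk2 and Rbl1 between the BMP treatments) changed when 1 library was left out.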
